A study of Arabis alpina with 9 samples.

Results

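The genes that separated the eop089 mutant from its control in the 5-week-old leaf of Arabis alpina were taken as all entries of the authors' pair of deposited leaf lists. The lists held 1199 entries for 1198 gene IDs, out of 30538 IDs in the count table: 397 were listed higher in the mutant and 802 lower. Each entry carries a fold, an adjusted p and the mutant and control means, so these values chose the genes and are given as a description, with no test. Of the 22821 gene IDs with a count in a mutant leaf library or an entry in the lists, 1.73% were listed higher and 3.49% lower. The entries nearest the limits had folds of 2.0 and 0.501 and adjusted p-values of 0.0497 and 0.0498 per the authors' deposited table.

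Arabis alpina is a perennial of the family of Arabidopsis thaliana, and the study asked how AaTFL1, its version of a repressor of flowering, regulates that step. All plants were of the accession Pajares and were grown in long days, and the mutant is given by its line name, eop089, without the gene that carries its lesion. Polyadenylated RNA was sequenced from mutant leaves at 5 weeks and from dissected mutant shoot apices at 3 and at 5 weeks, with 3 libraries in each of the 3 groups. The control of the leaf lists enters only as the authors' mean per gene. The sources used here do not give the control's genotype, its replicates, the number of leaves pooled or the hour of harvest.

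Pattern recognition receptors at the cell surface and resistance proteins inside the cell start calcium and kinase signalling, which leads through WRKY, ethylene response and zinc finger factors to salicylic acid and jasmonate synthesis. Growth of the same organ depends on light signalling, auxin, gibberellin and enzymes that loosen the wall, and each expanding epidermal cell must lay down cuticle. The leaf also stores and meters iron and copper, which the chloroplast needs and which are toxic when free. Gene functions below are those of the Arabidopsis thaliana gene that the authors paired with each ID.

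The libraries held 11859813 to 13382460 counts in genes. The leaf label was checked on the 3 of 6 mesophyll markers that were paired with an ID (CA1, CAT2 and LHCB2.1), whose summed level was 16777 to 17408 CPM (counts scaled to a common library size) in the leaf and 137 to 424 CPM in the apex. TFL1 had at most 0.112 CPM in a leaf library, against 29.1 to 32.8 CPM in the 3-week apex, and was in neither leaf list. The labels do not say that replicates came from separate plants, so a p-value reflects only how these samples varied, which may be technical. In bulk tissue, fewer cells of a type and less RNA per cell cannot be told apart.

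The mutant leaf lists leaned to lower values. Of the 1199 entries 66.9% were lower, with a median log2 fold of -1.66 per the authors' deposited table, against 1.43 for the higher entries. The 881 entries with an Arabidopsis gene were lower in 61.2% of cases and the 318 without one in 82.7%. Restated on the authors' scale, the mutant leaf libraries all lay on the listed side of the control mean for each of the 395 higher and 797 lower entries that could be measured, a pattern the choice of genes fixes. Normalized counts below are library counts on that scale, in the order of leaf replicates 1, 2 and 3.

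Leaf replicate 3 stood apart from the other two: the chi-square of counts per degree of freedom was 4.45 and 4.25 for its pairs and 1.66 for replicates 1 and 2. Among listed genes with a mean of at least 10 counts, it was the highest library for 241 of 390 higher genes (61.8%) and the lowest for 469 of 628 lower genes (74.7%). Over all 18557 genes at that level the same shares were 37.1% and 37.2%. Replicate 1 was farthest from the control for 18.7% of the higher and 14.0% of the lower genes, and replicate 2 for 19.5% and 11.3%. The median ratio of replicate 3 to the mean of the others was 1.15 for higher and 0.727 for lower genes. Without replicate 3, 346 of 394 higher and 705 of 796 lower genes were still at least 2-fold from the control mean. Its value stands last wherever values per library are given below.

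Sorted into 35 function groups, 477 entries fell into at least 1 group and 722 into none. Groups of perception, signalling and defence were mostly lower, and groups of light response, leaf growth and cuticle mostly higher. Of all entries 66.9% were lower, and of the 477 entries in a group 62.9%. A group with about the latter share does not differ from the grouped entries as a whole.

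**Figure D1:**
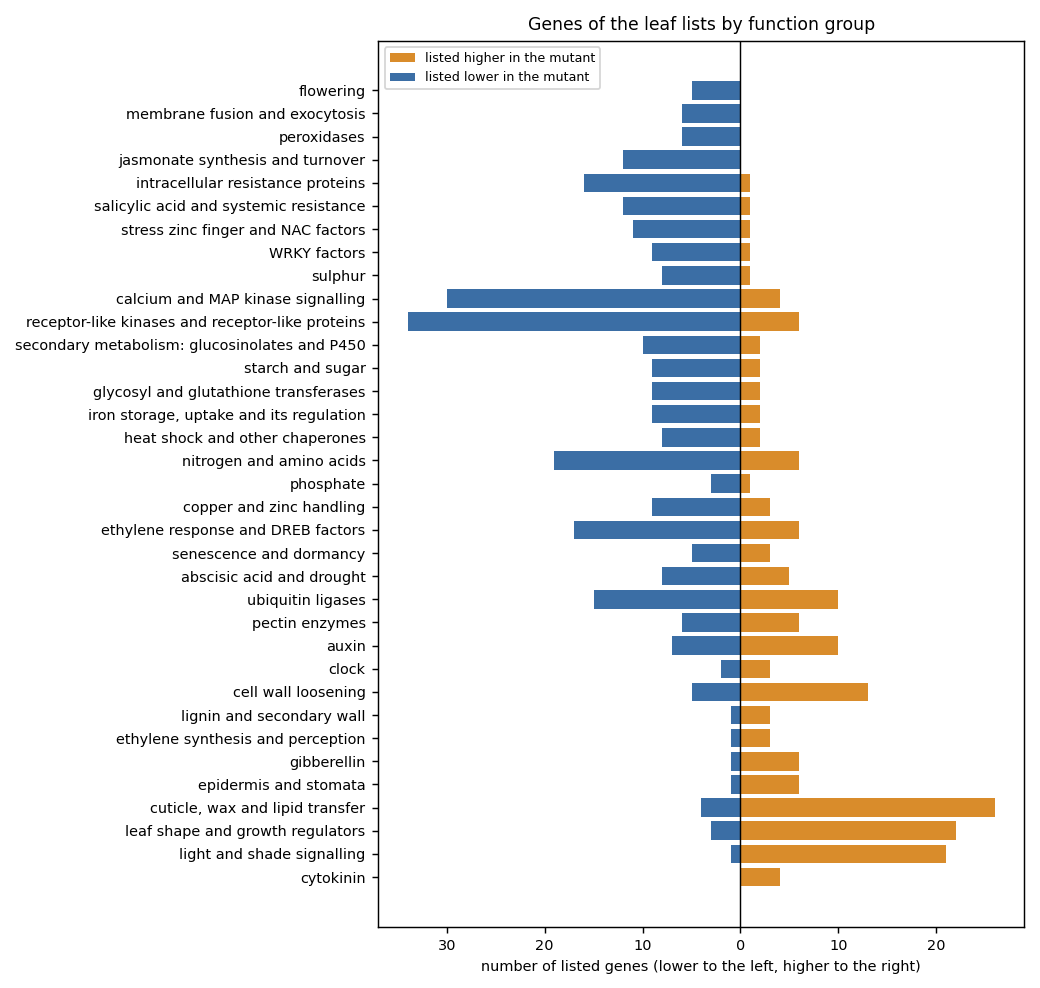
Number of listed genes in each of the 35 function groups, entries listed lower in the mutant leaf to the left and entries listed higher to the right; groups are ordered by the share listed lower. Receptor-like kinases (34 lower, 6 higher) and calcium and MAP kinase signalling (30 lower, 4 higher) have the longest lower bars, and cuticle, wax and lipid transfer (26 higher, 4 lower) the longest higher bar.

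The ferritin genes and the other listed iron genes stood on opposite sides. Of the 11 listed iron genes, both ferritin genes were higher. The other 9, among them genes of iron sensing, chelation and transport, were lower. FER1 (Aa_G53890), which encodes a plastid ferritin that stores iron, had normalized counts of 5523, 5355 and 6270, against a control mean of 834 per the authors' deposited table, with a fold of 6.85 and an adjusted p of 1.87e-41. FER3 (Aa_G287200), another ferritin gene, had 1338, 1298 and 1518 normalized counts against a control mean of 204, a fold of 6.78 per the authors' deposited table. FER1 had the smallest adjusted p of the higher list, and its lowest library lay far above the control mean. FER1 was also listed higher in the 3-week apex, with a fold of 2.33 per the authors' deposited table.

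BTS, which encodes an E3 ligase that restrains the iron deficiency response, had 753, 687 and 710 normalized counts against a control mean of 3538, which is 0.203 of the control per the authors' deposited table (adjusted p of 3.91e-29). PYE, a bHLH factor of that response, had 135, 96.7 and 112 against 448, or 0.256 of the control per the authors' deposited table. The replicates of BTS lay close together and those of PYE less so, and replicate 3 was not the lowest for either gene. NAS3 and NAS1 encode synthases of the iron chelator nicotianamine, and they stood at 0.229 and 0.427 of the control per the authors' deposited table. OPT3, a phloem transporter needed for iron signalling from shoot to root, had 1241, 1496 and 1268 normalized counts against 3010, or 0.444 of the control per the authors' deposited table. ORG1 at 0.368, FRO7 (a chloroplast ferric reductase) at 0.413, CGLD27 at 0.44 and MTP8 (a manganese and iron carrier of the vacuole) at 0.482 of the control per the authors' deposited table completed the lower iron genes.

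Copper and zinc genes divided in a like way. CSD1, a cytosolic copper and zinc superoxide dismutase, had 2138, 2094 and 2454 normalized counts against a control mean of 770, a fold of 2.89 per the authors' deposited table. CCS, the chaperone that loads copper into that enzyme, had 845, 805 and 868 against 273, a fold of 3.08 per the authors' deposited table. Both the enzyme and its chaperone were thus high in every library. On the lower side stood the copper importer COPT2 with 245, 249 and 125 normalized counts against 504, or 0.409 of the control per the authors' deposited table. The zinc transporter ZIP10 had 117, 102 and 21.5 against 313, or 0.256 of the control, and ZIP5 and the zinc pump HMA4 were at 0.387 and 0.483 per the authors' deposited table. For COPT2 and ZIP10 replicate 3 was far below the others. In all, 9 of 12 copper and zinc genes were lower, close to the share in the whole lists.

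**Figure D2:**
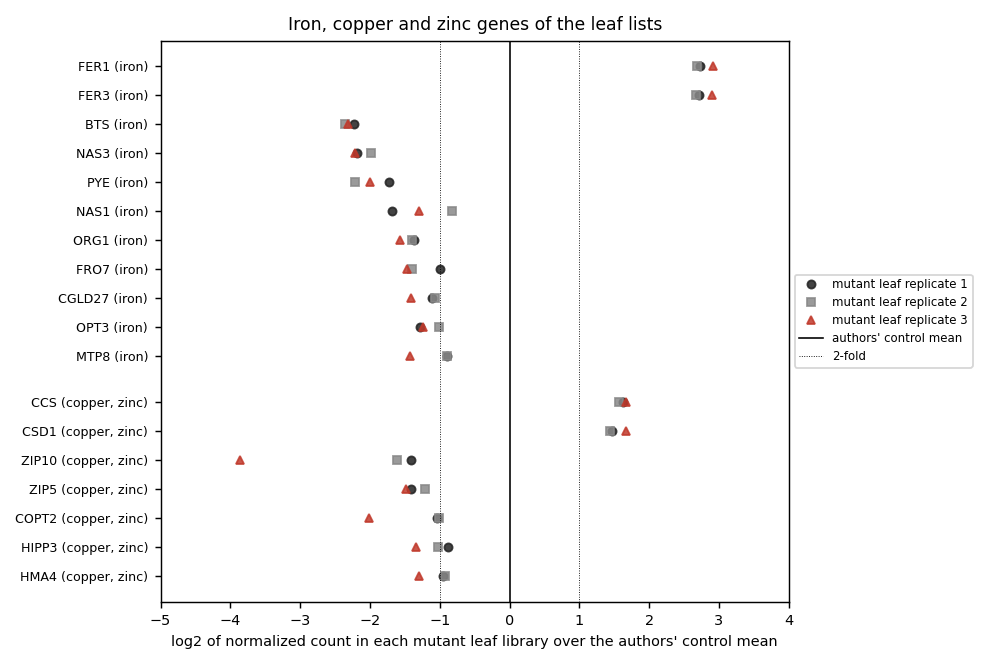
Log2 of the normalized count in each of the 3 mutant leaf libraries over the authors' control mean, for 11 iron and 7 copper and zinc genes of the leaf lists; the solid line is the control mean and dotted lines mark 2-fold. FER1, FER3, CCS and CSD1 lie right of the upper 2-fold line in all libraries, and the other genes lie left of the control mean.

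Surface receptors formed the largest group of lower genes, 34 of 40 listed receptor-like kinases and receptor-like proteins. SOBIR1, a partner kinase of receptor-like proteins, had 912, 934 and 684 normalized counts against a control mean of 2958, or 0.285 of the control per the authors' deposited table. BIR1, which holds SOBIR1 signalling in check, had 649, 667 and 522 against 1403, or 0.437 of the control per the authors' deposited table. FLS2, the receptor for bacterial flagellin, had 95.5, 119 and 116 against 321, or 0.343 of the control per the authors' deposited table. Receptors and a negative regulator were thus lower together. LYK5, a chitin receptor, stood at 0.191 of the control, and the wall-associated kinase gene WAKL1 at 0.0458, with 11.2, 14.6 and 2.04 normalized counts against 203 per the authors' deposited table. Within the lectin receptor kinases, LECRK-VI.2 was at 0.0625 and LECRK-VI.1 at 0.0842 of the control, while LECRK-VI.3 had 94.5, 97.6 and 87.9 normalized counts and a fold of 2.3 per the authors' deposited table. These 3 genes are close relatives, so how reads were divided between them is uncertain.

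Resistance proteins inside the cell were lower in 16 of 17 entries. Among them were DAR5, with 61.0, 60.5 and 28.6 normalized counts against 200 and a value of 0.25 of the control, RPM1, which detects bacterial effectors, at 0.444 of the control, the helper gene ADR1-L1 at 0.456, and SGT1A, a co-chaperone of resistance proteins, at 0.344 per the authors' deposited table. Downstream, 30 of 34 calcium and MAP kinase genes were lower. MPK11 had 71.1, 75.2 and 64.4 normalized counts against 486, or 0.144 of the control, and MPK3, a kinase of the immune cascade, had 716, 750 and 640 against 1647, or 0.426 of the control per the authors' deposited table. AP2C1, the phosphatase that switches such kinases off, was at 0.228, the kinase kinase MKK9 at 0.306, the calcium pump ACA1 at 0.38 and the channel CNGC3 at 0.343 of the control per the authors' deposited table. Replicate spread was small for MPK11 and MPK3, and no library came near the control mean. CAX1, a vacuolar calcium exchanger, was the most abundant exception, with 9916, 9808 and 9559 normalized counts and a fold of 2.02 per the authors' deposited table.

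Transcription factors of the stress response were among the genes farthest below the control. SZF1, a zinc finger gene of the salt and immune response, had 173, 177 and 143 normalized counts against 1153, or 0.142 of the control per the authors' deposited table (adjusted p of 3.08e-36). ZAT6 had 34.5, 52.7 and 20.4 against 364, and STZ, a zinc finger repressor of cold and drought responses, had 29.5, 24.4 and 5.11 against 224, which is 0.0987 and 0.0877 of the control per the authors' deposited table. For STZ, replicate 3 was far below the other two. Zinc finger and NAC factors were lower in 11 of 12 entries, with TZF5 the exception at a fold of 12.53 per the authors' deposited table. WRKY factors were lower in 9 of 10 entries, from WRKY53 at 0.11 to WRKY40 at 0.485 of the control per the authors' deposited table. The tenth, TTG2, is known for trichome and seed coat development rather than defence, and had a fold of 2.34 per the authors' deposited table. Ethylene response and DREB factors were lower in 17 of 23 entries, among them ERF104 with 120, 130 and 118 normalized counts against 524, or 0.234 of the control, and ERF6 with 7.11, 16.6 and 4.09 against 148, or 0.0627 of the control per the authors' deposited table. ERF6 was at 0.0379 without replicate 2. The share of the family that was lower, 73.9%, was close to the 66.9% of all entries. WRI4, one of the 6 higher entries in that family, directs wax synthesis.

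The salicylic acid group was lower in 12 of 13 entries. CBP60G and SARD1, the factors that switch on salicylic acid synthesis, had 93.5, 96.7 and 76.7, and 33.5, 35.2 and 32.7 normalized counts, or 0.311 and 0.178 of the control per the authors' deposited table. EDS5, the exporter of the precursor from the chloroplast, had 15.3 to 18.3 normalized counts against 85.6, and the signalling lipase-like gene PAD4 had 326, 321 and 240 against 733 per the authors' deposited table. The marker PR1 had 13.2, 15.6 and 2.04 against 193, or 0.0532 of the control per the authors' deposited table. Replicate 3 was the lowest library for all 12 lower members, narrowly for SARD1 and by several-fold for PR1. DLO2, a relative of salicylic acid hydroxylases, was at 0.0291 of the control per the authors' deposited table, with a mutant mean of only 1.33 normalized counts. UGT76B1, which glucosylates salicylic acid, was at 0.129 of the control per the authors' deposited table. Synthesis genes and this glucosylation gene thus lay on the same side. UGT76B1 had 4.06, 14.6 and 3.07 normalized counts and was at 0.0633 of the control without replicate 2. DIR1, a lipid transfer protein of systemic resistance, was the higher entry with a fold of 2.42 per the authors' deposited table.

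All 12 jasmonate entries were lower, from lipoxygenases to hormone inactivation. LOX3 and LOX4, lipoxygenases of the first step, had 118, 136 and 57.2, and 53.8, 62.5 and 21.5 normalized counts, or 0.337 and 0.148 of the control per the authors' deposited table. AOS, the next enzyme, had 270, 226 and 130 against 721, and the reductase gene OPR1 had 467, 461 and 353 against 1471, or 0.289 and 0.29 of the control per the authors' deposited table. OPCL1, which activates the precursor for shortening, was at 0.47, the repressor JAZ1 at 0.266, and CYP94B3, which oxidises the active hormone, at 0.0276 of the control per the authors' deposited table. Replicate 3 was the lowest library for all 12, with a median of 0.449 of the other two. CYP94B3 had 2.03, 0.976 and 0.0 normalized counts and was at 0.0134 of the control without replicate 1 and at 0.0413 without replicate 3. AOC2 had 51.8, 43.9 and 11.2 normalized counts, a value of 0.5 of the control per the authors' deposited table and of 0.67 without replicate 3. AOC2 and AOC3 are near relatives, so their reads may have been shared.

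**Figure D3:**
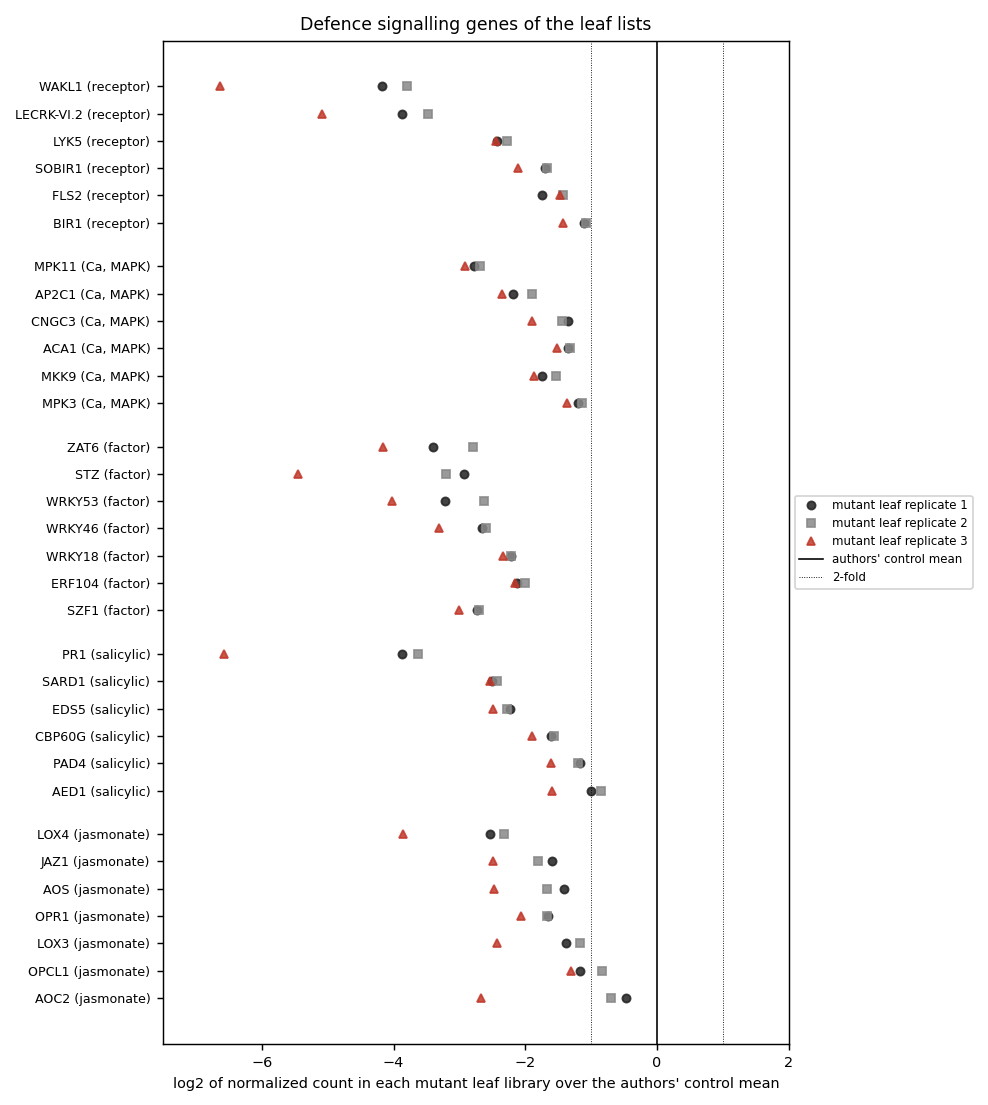
Log2 of the normalized count in each of the 3 mutant leaf libraries over the authors' control mean, for 32 defence signalling genes of the leaf lists grouped by role. All libraries lie left of the control mean, and replicate 3 lies farthest left for PR1, WAKL1, STZ and the jasmonate genes.

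Of 7 touch and heat markers, only TCH4 and HSP90.1 were paired with an ID. Both were lower, at 0.327 and 0.392 of the control per the authors' deposited table. Gene names came only from the authors' lists, so a marker outside those lists could not be paired and its level is unknown here. Their summed level was 42.1 to 43.5 CPM over the leaf libraries, and their part in the defence values was not tested. Among chaperones as a whole, 8 of 10 entries were lower.

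Secretion and chemical defence followed. All 6 listed genes of membrane fusion and exocytosis were lower, including the syntaxin SYP121 with 883, 933 and 755 normalized counts against 1854 and its partner SNAP33 with 868, 769 and 635 against 1577, or 0.462 and 0.48 of the control per the authors' deposited table. SYP122, a close relative of SYP121, was at 0.151 and the exocyst subunit EXO70B2 at 0.192 of the control per the authors' deposited table. In indole glucosinolate synthesis, the regulator MYB51 had 119, 151 and 134 normalized counts against 383, or 0.351 of the control, CYP83B1 was at 0.27 and the sulphotransferase SOT16 at 0.183 per the authors' deposited table. All 6 peroxidase entries were lower, from PER64 at 0.143 to GPX7 at 0.446 of the control per the authors' deposited table. PER64 had 11.2, 5.86 and 0.0 normalized counts and was at 0.0739 of the control without replicate 1 and at 0.215 without replicate 3. Glycosyl and glutathione transferases were lower in 9 of 11 entries. Among 25 ubiquitin ligases and related entries, 15 were lower and 10 higher, and the lower ones included PUB22 at 0.2, an E3 ligase that dampens immune responses, and CMPG1 at 0.267 per the authors' deposited table.

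Nutrient genes were mostly lower too. Of 9 sulphur genes 8 were lower, among them APR2 and APR3, reductases that assimilate sulphate, at 0.41 and 0.333, and the sulphur deficiency marker LSU2 at 0.375 of the control per the authors' deposited table. APR2 had 606, 602 and 482 normalized counts against 1373 per the authors' deposited table. Of 25 nitrogen and amino acid genes 19 were lower, among them 6 genes of the UMAMIT transporter family, the amino acid importer LHT1 (208, 192 and 152 against 439) and the ammonium transporter AMT2 (341, 349 and 247 against 772) per the authors' deposited table. These 19 made up 76.0% of the group, near the 66.9% lower among all entries. GLDP2, a subunit of the photorespiratory glycine decarboxylase, had 2413, 2431 and 2288 normalized counts against 6462, or 0.368 of the control per the authors' deposited table. Higher in this group were NIA1, a nitrate reductase gene, with 3016, 3028 and 3521 normalized counts against 1334 and a fold of 2.39, and ASN1, an asparagine synthetase gene, with 404, 407 and 1314 against 152 and a fold of 4.65 per the authors' deposited table. The ASN1 value rested on replicate 3, and its fold was 2.66 without that library. In starch and sugar metabolism 9 of 11 entries were lower, including the plastid glucose phosphate importer GPT2 at 0.209 with 148, 123 and 149 normalized counts, and GBSS1, which makes amylose, with 1565, 1640 and 1849 against 3787 per the authors' deposited table.

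Light signalling genes were higher in 21 of 22 entries. PHOT1, the blue light receptor phototropin, had 4996, 4872 and 4633 normalized counts against a control mean of 2055, a fold of 2.35 per the authors' deposited table. PIL1, a bHLH gene known for its fast induction by shade, had 290, 310 and 136 against 60.8, a fold of 4.03 per the authors' deposited table. HFR1, PAR1 and PAR2, which restrain elongation in shade, had folds of 2.9, 5.86 and 2.35, with 103, 93.7 and 102 normalized counts for HFR1 against 34.3 per the authors' deposited table. Receptor, shade-induced and restraining genes were thus higher together, with replicate 3 lowest for 10 of the 21 and highest for 8. CIB1, a partner of blue light receptor cryptochrome, had 210, 185 and 133 against 30.3, a fold of 5.81 per the authors' deposited table. The B-box gene BBX28 had 334, 290 and 303 against 95.1, a fold of 3.25, while BBX32 was the lower entry with 43.7, 42.0 and 25.6 against 242, or 0.153 of the control per the authors' deposited table.

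Hormone genes of growth were mostly higher, and feedback genes were among them. In the gibberellin group 6 of 7 entries were higher: GA20OX2, an enzyme of gibberellin synthesis, had 35.6, 39.1 and 53.2 normalized counts against 3.63, and GASA4, a gibberellin-regulated peptide gene, had 11149, 11427 and 11671 against 5003, folds of 11.73 and 2.28 per the authors' deposited table. GASA14 had 540, 519 and 650 against 128, a fold of 4.44, while its relative GASA1 had 3365, 3033 and 1911 against 6645, or 0.417 of the control per the authors' deposited table. The 6 higher entries also held RGL2 and RGL3, DELLA repressors of the gibberellin response, with folds of 2.1 and 2.96 per the authors' deposited table. All 4 cytokinin entries were higher, of which CKX5 and CKX3 encode oxidases that degrade the hormone, with 424, 432 and 356, and 32.5, 47.8 and 58.3 normalized counts in the mutant leaf. In the auxin group 10 of 17 entries were higher, including TAA1 and YUC8, consecutive steps of auxin synthesis, with folds of 2.32 and 3.6, and the response genes IAA29 (884, 918 and 837 against 266) and IAA19 (1443, 1407 and 1428 against 679) per the authors' deposited table. The 7 lower auxin entries included PILS5 at 0.253, an intracellular auxin carrier, and SAUR72 at 0.23 per the authors' deposited table. Among ethylene genes, the synthases ACS4 (255, 294 and 350 against 84.8) and ACS8 (672, 627 and 590 against 234) and the receptor ERS2 were higher, and the stress-linked synthase ACS6 (59.9, 58.6 and 52.1 against 257) was lower, at 0.221 of the control per the authors' deposited table.

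Wall loosening genes were higher in 13 of 18 entries. All 8 alpha- and beta-expansin entries were higher, while the expansin-like gene EXLA2 was lower. Among the former were EXPA8 with 2827, 2871 and 2544 normalized counts against 957, a fold of 2.87, and EXPA11 with 108, 119 and 98.1 against 31.3, a fold of 3.47 per the authors' deposited table. The xyloglucan endotransglucosylase genes fell on both sides, XTH28 and XTH30 with folds of 3.04 and 2.08, and XTH18, XTH24, XTH33 and TCH4 (itself a touch-induced member) at 0.238, 0.343, 0.336 and 0.327 of the control per the authors' deposited table. XTH24 had 935, 849 and 394 normalized counts against 2114, so replicate 3 was lowest, whereas TCH4 had 382, 379 and 369 against 1152 per the authors' deposited table. Pectin enzymes were divided evenly, with 6 higher and 6 lower. PME17, a pectin methylesterase gene, had 18.3, 14.6 and 12.3 normalized counts against 353, with an adjusted p of 2.55e-49 per the authors' deposited table.

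Cuticle, wax and lipid transfer genes were higher in 26 of 30 entries. CER1, which makes wax alkanes, had 255, 251 and 199 normalized counts against 81.0, a fold of 2.9, and FAR1, a fatty acid reductase, had 1924, 1847 and 1489 against 595, a fold of 2.95 per the authors' deposited table. In both, replicate 3 was the lowest library. LTL1, a lipase-like gene, had 401, 405 and 1022 against 75.9, a fold of 8.03, and KCS8, an elongase of long fatty acids, had 212, 248 and 540 against 73.1, a fold of 4.56 per the authors' deposited table. Here replicate 3 was the highest library, and without it the folds were 5.31 and 3.15. Replicate 3 was the highest for 20 of the 26 and the lowest for 4.

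Epidermal genes were higher in 6 of 7 entries. PDF1, an epidermal protein gene, had 42.7, 26.4 and 359 normalized counts against 2.62, a fold of 54.37 per the authors' deposited table and of 13.2 without replicate 3. In CPM, PDF1 stood at 4.64, 2.87 and 39.2 in the leaf libraries and at 647 to 1409 in the apex libraries. The stomatal lineage gene TMM had 57.2 normalized counts in replicate 3 and 25.4 in the next highest library against 5.27, and SDD1, a protease of stomatal spacing, had 27.4, 27.3 and 68.5 against 5.57, folds of 6.33 and 7.38 per the authors' deposited table. TMM had a fold of 4.08 and SDD1 of 4.92 without replicate 3. These genes, like the cyclin gene CYCB1;3, also mark young tissue. Of 4 epidermal, 7 stomatal and 6 dividing-cell markers 1 each was paired with an ID. Markers outside the authors' lists could not be paired, and meristem markers were not analysed here. The guard cell marker KAT1 was lower, at 0.378 of the control per the authors' deposited table. The part of young tissue in the cuticle and growth values was not tested.

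Leaf shape and growth regulators were higher in 22 of 25 entries. WOX1, a homeobox gene of leaf blade outgrowth, had 86.4, 82.0 and 112 normalized counts against 15.4, a fold of 6.07, and the zinc finger homeobox gene HB31 had 54.9, 59.6 and 86.9 against 12.2, a fold of 5.5 per the authors' deposited table. ARGOS, which prolongs organ growth, had 258, 336 and 222 against 78.0, a fold of 3.49, and the growth-regulating factor gene GRF4 had 44.7, 39.1 and 44.0 against 17.7, a fold of 2.4 per the authors' deposited table. All libraries of these 4 genes lay above the control mean, and replicate 3 was highest for WOX1 and HB31 only. Cell cycle genes lay on both sides: CYCB1;3 and CYCD1;1 had folds of 2.12 and 2.35 per the authors' deposited table, and of 1.85 and 1.81 without replicate 3. The cyclin genes CYC3B and CYCP4;1 had folds of 2.33 and 2.01 per the authors' deposited table, and of 2.51 and 2.07 without replicate 3. Below the control stood the cyclin gene cycp3;1 at 0.33, TCP23 at 0.395 and AG, a floral organ identity gene, with 10.2, 4.88 and 4.09 normalized counts against 27.4, or 0.233 of the control per the authors' deposited table.

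**Figure D4:**
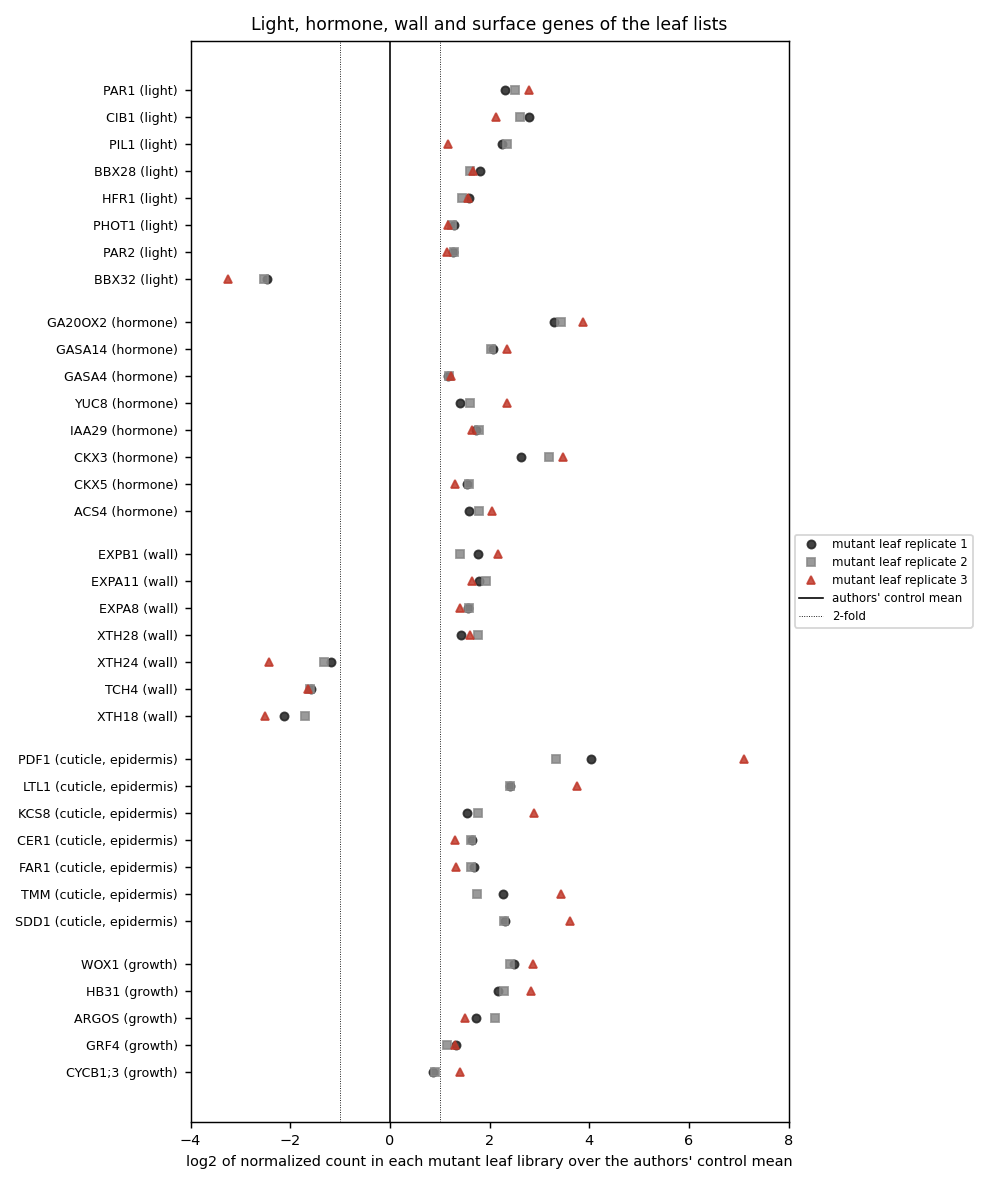
Log2 of the normalized count in each of the 3 mutant leaf libraries over the authors' control mean, for 35 light, hormone, wall, cuticle, epidermis and growth genes of the leaf lists. BBX32, XTH18, XTH24 and TCH4 lie left of the control mean and the others right of it, and replicate 3 of PDF1 lies farthest right.

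Flowering, clock and drought genes were small groups. All 5 listed flowering genes were lower: the florigen gene FT had 36.6, 43.0 and 23.5 normalized counts against 88.4, the relative BFT had 1.02, 3.91 and 1.02 against 19.8, and SPL4, a promoter of flowering, had 69.1, 82.0 and 69.5 against 183 per the authors' deposited table. BFT was at 0.1 of the control per the authors' deposited table and at 0.0515 without replicate 2. MYR1 and MYR2, Myb-related repressors of flowering in Arabidopsis thaliana, had 64.0, 67.4 and 65.4, and 78.2, 97.6 and 70.5 normalized counts, or 0.434 and 0.426 of the control per the authors' deposited table. Promoters and repressors of flowering were thus on the same side. Of the 5 clock genes 3 were higher: PRR5 had 201, 221 and 219 normalized counts against 92.8, and PRR5, TOC1 and CCL had folds of 2.3, 2.22 and 2.2 per the authors' deposited table. CCA1 was lower, at 0.48 of the control per the authors' deposited table. LHY, also lower, had 281, 262 and 289 normalized counts against 886, or 0.313 of the control per the authors' deposited table, with replicates close together. Among 13 abscisic acid and drought entries, the synthesis genes NCED3 and NCED5 had folds of 2.17 and 4.5, the hormone-degrading CYP707A3 was at 0.126, and the receptors PYL4, PYL5 and PYL6 were at 0.481, 0.301 and 0.241 of the control per the authors' deposited table. In this group replicate 3 was highest for 6 of the 8 lower genes. Senescence and dormancy genes were higher in 3 of 8 entries. The dormancy markers DYL1 (947, 1016 and 1286 against 168) and DRM2 (169, 126 and 313 against 18.8) had folds of 6.45 and 10.79, and the chlorophyll-degrading gene NYC1 a fold of 2.65 per the authors' deposited table. The 5 lower entries were CV, a gene of chloroplast breakdown, at 0.248, CEP3 at 0.365, SAQR at 0.398, SAG20 at 0.457 and YLS5 at 0.469 of the control per the authors' deposited table.

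The lists also held very abundant genes outside these roles. GER3, a germin-like protein gene, had 16787, 16221 and 23867 normalized counts against 6136, a fold of 3.09 per the authors' deposited table, and its replicate 3 was the highest library. Among the lower ones, NMT had 2181, 2137 and 2176 against 7025, or 0.308 of the control, and DGAT3, a diacylglycerol acyltransferase gene, had 2004, 2042 and 1502 against 5365, or 0.345 per the authors' deposited table. At the other extreme, 9 lower entries had no count in any mutant leaf library. With 3 counts per library as the limit that a count of 0 allows, AT5G28885 was at least 20.3-fold lower and ERF13 at least 2.7-fold lower than their control means of 62.3 and 8.27 per the authors' deposited table. The other 7, which have no Arabidopsis gene, were at least 2.15-fold to 3.76-fold lower. In the opposite direction stood 3 genes, Aa_G514020 with 58.9, 53.7 and 12.3 normalized counts, RTFL15 with 5.08, 3.91 and 10.2, and AT4G30250 with 2.03, 6.84 and 10.2, where the control is listed at 0 per the authors' deposited table.

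The mutant apex libraries took no part in choosing the leaf genes. The change from the 3-week to the 5-week mutant apex was therefore tested on these genes with edgeR's quasi-likelihood test. P-values were adjusted by the Benjamini-Hochberg method over 20633 genes. The expression filter used all 9 libraries, so a gene nearly silent in the apex could pass on its leaf counts. The chi-square of counts per degree of freedom was 10.7, 6.68 and 3.63 for pairs of 5-week apex libraries and 2.46 to 2.83 for 3-week pairs. Reads in no annotated gene made up 13.9% to 16.3% of the 5-week and 10.7% to 11.0% of the 3-week apex libraries. Over all genes tested, 19.1% rose and 21.0% fell with age at an adjusted p of 0.05. Of the 390 genes listed higher in the leaf that passed the expression filter, 76 rose (19.5%) and 155 fell (39.7%), with a median log2 change of -0.31 against 0.01 for all genes. A fall of at least 2-fold was called in 83 of them (21.3%), against 4.46% of all genes. Of the 616 genes listed lower in the leaf that passed, 108 rose (17.5%) and 128 fell (20.8%), with a median log2 change of -0.02, and 181 measured genes did not pass the filter. Falls of at least 2-fold made up 13.6% and rises of at least 2-fold 6.98% of the lower genes, against 4.46% and 2.83% of all genes. With filter and fit on the apex libraries only, 19967 genes were tested. The higher list then had 76 rises and 149 falls, and the lower list 107 and 111. The 2-fold shares were not recomputed in that fit. They include falls near the floor, such as ACS4 in the higher list (mean of 0.375 to 0.044 CPM) and PME17 in the lower list (0.111 to 0.0 CPM). The balance of rises and falls in the lower list turned under total-count scaling (140 and 112) and without 5-week apex replicate 1 (121 and 113) or 2 (107 and 95). The higher list had more falls than rises in every alternative run.

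The genes that were higher in the mutant leaf and fell with apex age belonged to several of the groups above. Of 25 cuticle genes tested from the higher list, 16 fell and 3 rose, among them CER1 with a log2 change of -1.54 ± 0.18 (SE, edgeR adjusted p = 8.07e-06) and LTL1 with -1.04 ± 0.23 (SE, edgeR adjusted p = 0.00198). ASN1 was at 242, 280 and 232 CPM at 3 weeks and at 28.9, 18.1 and 25.7 CPM at 5 weeks, a log2 change of -3.37 ± 0.33 (SE, edgeR adjusted p = 1.44e-06). The nitrate-responsive BTB gene bt1 was at 84.6, 45.5 and 51.1 CPM and then at 3.61, 4.74 and 6.28 CPM. Neither gene had overlapping ages. IAA29 fell from 5.48, 4.77 and 5.05 to 0.322, 0.734 and 0.132 CPM, and GASA6 from 6.65, 4.36 and 5.72 to 0.709, 0.0667 and 0.0661 CPM (edgeR adjusted p = 7.07e-08 and 7.21e-07). PIL1 and BBX28 went the other way. PIL1 was at 0.261, 0.0681 and 0.0 CPM at 3 weeks and 0.58, 3.6 and 1.72 CPM at 5 weeks (edgeR adjusted p = 0.00299). These values are near the floor, and the filter also counted the leaf libraries, where PIL1 had 14.8 to 33.7 CPM. BBX28 was at 4.31, 4.63 and 2.39 CPM at 3 weeks and 4.96, 19.0 and 11.8 CPM at 5 weeks (edgeR adjusted p = 0.00159). PAR2 rose from 11.9 to 12.9 CPM at 3 weeks to 26.1 to 28.5 CPM at 5 weeks (edgeR adjusted p = 7.86e-08).

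Among genes lower in the mutant leaf, the sulphur genes rose with apex age in 6 of 7 tested and none fell. APR3 was at 12.7 ± 1.94 CPM and then at 31.2 ± 10.8 CPM (SD, n = 3 each), a log2 change of 1.29 ± 0.22 (SE, edgeR adjusted p = 0.000305). ATSDI1, a sulphur deficiency-induced gene, was at 2.94, 3.0 and 4.32 CPM and then at 6.45, 12.8 and 9.12 CPM (edgeR adjusted p = 0.000323). The ages did not overlap for either gene. FLS2 rose from 11.9, 11.7 and 8.98 to 36.7, 23.9 and 30.7 CPM (edgeR adjusted p = 1.62e-06), and it was 1 of 2 receptor genes of the lower list that rose, against 6 that fell. Of the iron genes, FER1 and FER3 rose, with log2 changes of 0.70 ± 0.10 and 0.48 ± 0.11 (SE, edgeR adjusted p = 4.95e-05 and 0.00348), and BTS and OPT3 fell by 0.42 and 0.28 (edgeR adjusted p = 0.000141 and 0.00951). MTP8 also fell, with a log2 change of -1.75 (edgeR adjusted p = 0.0013), while CGLD27, lower in the leaf as well, rose by 0.45 on the log2 scale (edgeR adjusted p = 0.0215). The glucosinolate and P450 genes fell in 6 of 9 tested, CYP79C2 from 44.0, 20.7 and 20.9 to 0.322, 1.47 and 0.925 CPM (edgeR adjusted p = 7.78e-08).

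**Figure D5:**
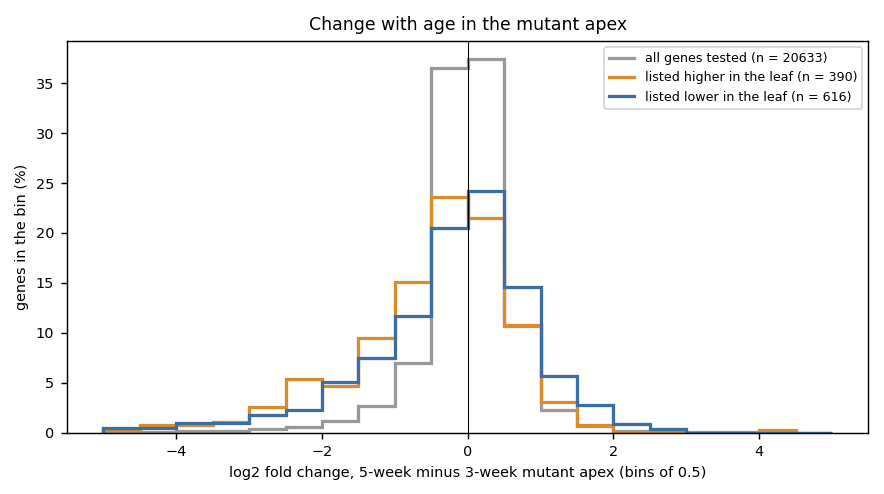
Distribution of the log2 fold change from the 3-week to the 5-week mutant apex in bins of 0.5 (y axis, percent of genes of each set) for all 20633 genes tested, the 390 genes listed higher and the 616 listed lower in the leaf. The higher list is shifted to the left, with a median of -0.31, and the lower list is wide and centred at -0.02.

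Set against the 5-week mutant apex, many leaf-list genes were leaf genes, and others were not. Over all genes tested, all 3 leaf libraries lay above all 5-week apex libraries for 37.4% and below them for 42.3%. Of the lower list 394 genes of 616 (64.0%) were above the apex and 84 (13.6%) below, and of the higher list 186 of 390 (47.7%) were above and 157 (40.3%) below. The leaf libraries helped to choose the genes, so no test was made. Intracellular resistance genes lay above the apex in 14 of 16 lower entries, while leaf shape and growth genes lay below it in 13 of 22 higher entries, such as HB28 at 50.9 CPM (3-week apex), 71.2 CPM (5-week apex) and 4.01 CPM (leaf) on average.

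Some leaf genes were also in the authors' apex lists. In the same direction, the leaf shared 39 higher genes with the 3-week apex (16.1% of that apex list, 9.82% of the leaf list) and 29 lower genes (34.1% and 3.62%). With the 5-week apex it shared 17 higher genes (25.8% and 4.28%) and 13 lower genes (26.0% and 1.62%). Of the 22821 gene IDs with a mutant leaf count or a leaf entry, 1.73% were listed higher and 3.49% lower in the leaf. Listed in the opposite direction were 3 higher and 8 lower leaf genes at the 3-week apex, and 1 and 7 at the 5-week apex. DYL1 had folds of 3.48 at the 3-week apex and 6.45 in the leaf, bt1 of 4.33 and 4.2, and APD7 of 2.55 and 3.98 per the authors' deposited table. DRM2 and ASN1 were listed higher in the leaf and in both apices. Their folds at the 3-week apex, 5-week apex and leaf were 10.72, 8.53 and 10.79 for DRM2 and 4.79, 2.27 and 4.65 for ASN1 per the authors' deposited table. On the lower side ERF105 was at 0.366 at the 3-week apex and 0.208 in the leaf, LOX4 at 0.435 and 0.148, and GPT2 at 0.268 and 0.209 of the control per the authors' deposited table.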

How the data were processed

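Per the labels' protocols, polyadenylated RNA was made into directional libraries and read as single reads of 100 bases. The count table holds whole-number counts per gene, as deposited by the authors, for 9 mutant libraries. STAR, HTSeq 0.5.4p1, DESeq and DESeq2 are named per the submitters' processing notes, and the genome build, annotation and use of strand are not stated in the sources used here, so reads of a gene and an antisense partner cannot be told apart. Per the file headers, the authors' leaf lists give the fold (the ratio of the mutant to the control mean), its log2, an adjusted p-value and the mean expression signal in normalized counts, as deposited. A blank mutant mean was taken as 0. Control libraries were not analysed here.

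Counts of the mutant leaf libraries were divided by size factors and set on the authors' scale: all 1018 listed genes with a mean of at least 10 counts lay within 1% of 1 constant (1.01). The 7 entries whose IDs have several rows in the count table got no value per library, and Aa_G303390 was listed as 2 rows. Counts in genes were 12920863 to 13382460 in the leaf. The 9 libraries were fitted in edgeR 4.0.16 (R 4.3.3) with TMM scaling, filterByExpr and the quasi-likelihood test as 1 model of 3 groups, and p-values were adjusted by the Benjamini-Hochberg method over 20633 genes at 0.05. CPM are per TMM-scaled library size, and the SE of a log2 change comes from the same test. On simulated data, folds of 1.5, 2 and 4 between the apex ages were recovered for 67.2%, 94.0% and 100.0% of genes, with 13 false calls among 187. Only a small set of well-counted genes was changed in the simulation, so it does not cover near-silent genes or a broad shift. DESeq2 1.42.0 and limma 3.58.1 served as alternatives, with total-count or RLE scaling, no filter, apex libraries only, a replicate block and each replicate left out. Figures were drawn with matplotlib 3.10.9.

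Same-numbered apex libraries did not deviate together (correlations -0.0771, 0.00757 and -0.0137). Genes were named by size: the largest folds (larger mean at least 100), the most abundant, up to 3 per group and direction (larger mean at least 50), means of 0, the largest apex changes and genes shared with apex lists. Genes outside this rule were chosen after their values were seen. The members, groups and lists were all chosen with earlier results of these data known.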

Additional observations from a re-analysis of the deposited data

Results flagged for a closer look

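These genes were listed on opposite sides of the control in the leaf and in an apex, with every mutant library on its own side of the respective control mean. The difference itself was not tested, since control libraries are given only as means, and folds and shares of the control below are those of the authors' deposited table. Values without a replicate are given where they moved by over 1.5 times, an alternative chosen after seeing the data.

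Higher in the leaf and lower in the 3-week apex were BBX28, with a leaf fold of 3.25 and 0.443 of the control in the apex, and the unnamed Aa_G342840 (4.05 and 0.366) and Aa_G219720 (3.32 and 0.465), per the authors' deposited table. The unnamed Aa_G68870 had a leaf fold of 2.36 and was at 0.401 in the 5-week apex per the authors' deposited table, with leaf normalized counts of 30.5, 31.2 and 84.8; its leaf fold was 1.49 without leaf replicate 3, and its apex value 0.255 without apex replicate 1. Aa_G342840 had leaf normalized counts of 117, 126 and 386, and a leaf fold of 2.35 without leaf replicate 3. Lower in the leaf and higher in the 3-week apex were MIOX2, a myo-inositol oxygenase gene (0.18 and 3.49), HSPRO2 (0.452 and 2.0), UMAMIT33 (0.486 and 2.07), CML41 (0.463 and 4.06), AOC2 (0.5 and 3.79) and AT1G80120 (0.362 and 2.59), per the authors' deposited table. AOC2 had 32.7, 8.02 and 17.7 normalized counts in the 3-week apex, with a fold of 2.51 there without apex replicate 1.

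The chitinase-family gene AT2G43590 stood at 0.357 in the leaf, with folds of 2.48 and 4.36 in the 3-week and 5-week apex per the authors' deposited table. Its 5-week apex libraries held 48.3, 24.4 and 122 normalized counts, with a fold of 2.45 without apex replicate 3. WRKY40 stood at 0.485 in the leaf, with folds of 2.16 and 2.31 in the apices per the authors' deposited table. In the 5-week apex the glucosinolate genes CYP79B2 and CYP79B3 had folds of 2.29 and 8.09 and were at 0.38 and 0.361 in the leaf, and the calcium pump gene ACA12 had 4.59 and 0.389, per the authors' deposited table. For CYP79B3 the 5-week apex libraries held 4.39, 4.51 and 34.0 normalized counts, with a fold of 2.51 without apex replicate 3.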

How the results depend on the processing

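Of 76 values recomputed for 12 results, 74 kept within 1.5 times. The exceptions are the list sizes at a fold of at least 4, which leaves 93 higher and 286 lower genes. Leaving out each apex replicate gave 68 to 81 rises and 135 to 151 falls for the higher list, and 87 to 121 rises and 95 to 115 falls for the lower. Leaving out each leaf replicate, a choice made after seeing the data, left 346 to 384 higher and 705 to 782 lower genes at 2-fold. All 395 and 797 genes stayed on their side, an outcome fixed in advance because every library already lay there. These fixed values are counted among the 74 above. With the replicate block, 75 rose and 151 fell in the higher list and 106 and 114 in the lower, and the numbers do not pair the samples. Scaling by total counts moved the median log2 change of all genes from 0.01 to 0.12 and the share of calls that rose from 47.6% to 66.2%; the lower list then had 140 rises and 112 falls in place of 108 and 128, while the higher list had 87 rises and 136 falls. DESeq2 put the share of calls that rose at 37.2%. The control enters as a mean, so the spread between control leaves was not tested, and 72 lower genes had under 10 counts over the leaf libraries.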

Other observations

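A set of lower genes was near silent in the mutant as a whole. In 36 of the lower entries no mutant library, leaf or apex, had more than 3 counts, and 11 of these had a control leaf mean of at least 20 normalized counts per the authors' deposited table. They were the jasmonate-linked lipase gene DLAH (control mean 61.6, 7 counts over the 9 libraries), NAC061 (41.9, 15 counts), the kinase gene MAPKKK21 (22.4, 11 counts), the peptide gene IDL6 (25.7, 4 counts), the purine permease gene PUP19 (27.5, 3 counts), AT1G20310 and 5 genes without an Arabidopsis name. Of the latter, Aa_G310960 had the highest control mean, 183, and 5 counts in all. Control apices of these genes were not analysed here.

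The 3 lowest finite values of the lists belonged to genes with no symbol and were chosen after their values were seen. Aa_G739940 was at 0.0067 of the control per the authors' deposited table, with raw counts of 0, 6 and 1 in the leaf libraries and 0 in each apex library. AT5G05250 (Aa_G353240) was at 0.0104 of the control per the authors' deposited table, with 5, 4 and 3 counts in the leaf, 62, 26 and 48 in the 3-week apex and 11, 15 and 12 in the 5-week apex. The gene was thus near the floor in the leaf but present in the apex of the same mutant.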
